A study of Mus musculus with 21 samples.

Results

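The 32 genes described here encode enzymes and regulators that make cholesterol, fatty acids and the sphingolipids of myelin, out of the 52550 genes of the count table. They were chosen by function and fall into 5 roles, with 6 genes of the mevalonate branch, 11 of the squalene and sterol branch, 4 of the SREBP control system, 8 of fatty acid synthesis, elongation and desaturation, and 3 of myelin sphingolipid synthesis. RNA-Seq was done on 7 groups of mouse inner ear cells with 3 libraries each, or 21 libraries. Of these groups, 5 were spiral ganglion neurons (SGNs), which carry sound information from the cochlea to the brain, from embryos of E15.5 and from pups and mice of P1, P8, P14 and P30. The others were sensory hair cells (HCs) of P12 and glial cells of the P8 cochlea. All mice were of the C57BL/6 strain and carried 1 copy of a Cre reporter (Rosa26-CAG-loxp-stop-loxp-tdTomato, or Ai9), and cells were collected by their tdTomato signal. SGNs came from ShhCre/+ mice without tamoxifen, so the label marks cells with past *Shh* activity. HCs came from Atoh1-CreER+ mice given tamoxifen at P0 and P1, and HCs of the cochlea and the vestibular organs were pooled. Glial cells came from vGlut3-iCreER/+ mice given tamoxifen at P2 and P3 and were picked from the ganglion region. Each library pooled between 69 and 195 SGNs, between 86 and 125 glial cells, or about 1200 HCs. SGN samples had been kept only after a qPCR check that included *Sox10* and *Myo6* and a second check after sequencing. That second check used more markers, among them *Slc17a6*, *Slc17a7*, *Lypd1*, *Myo7a*, *Pou4f3*, *Gfi1*, *Foxd3*, *Hbb-bs* and *Hbb-bt*. None of these genes is therefore an independent test of purity. The sources used here do not say whether replicates came from separate animals, and p-values therefore measure the spread between these libraries, which may be technical.

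Cholesterol is built from acetyl-CoA, first through mevalonate to farnesyl diphosphate, then through squalene and lanosterol to the finished sterol. The transcription factors SREBP-1 and SREBP-2, encoded by *Srebf1* and *Srebf2*, are escorted from the endoplasmic reticulum by SCAP and held back by INSIG proteins when sterols are plentiful, and they switch on most of these genes when sterols run low. Fatty acids are assembled by acetyl-CoA carboxylase and fatty acid synthase and are then lengthened and desaturated. Myelin is rich in cholesterol, very long chain fatty acids and galactolipids, and the axons and cell bodies of SGNs are wrapped by Schwann cells and satellite glial cells, and in peripheral nerve these pathways are best known for their work in glia.

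Gene counts summed to 10368240 in the smallest and 37287489 in the largest library (median 20384100). Levels are given as RPKM, the counts of a gene divided by its length in kilobases and by the TMM-scaled library size. Differences are log2 fold changes from limma-voom, given with their standard error (SE) and a p-value adjusted over all genes tested after Benjamini and Hochberg (BH). They are the later age minus the earlier, glial cells minus SGNs, and HCs minus SGNs or glial cells. All 32 members passed the filter on low counts in both fits. Between SGN ages, 15 libraries and 15113 genes were fitted and a gene was called when it changed over 2-fold with an adjusted p under 0.05. Between cell types, 21 libraries and 17531 genes were fitted and a call needed over 4-fold and an adjusted p under 0.01. The 7 neuron markers summed to 968 to 4489 RPKM in SGN libraries, to 106 to 116 in HCs and to 29 to 294 in glial cells, where replicate 1 (294) stood above replicates 2 and 3 (65.2 and 29). The 7 Schwann cell myelin markers summed to 1911 to 2638 RPKM in glial cells and to less in SGNs, with 34.4 to 68.9 at E15.5, 26.6 to 74.9 at P1, 271 to 602 at P8, 51.9 to 275 at P14 and 10.5 to 142 at P30. The 8 HC markers summed to 1483 to 1664 in HCs, to between 19.4 and 348 in SGN libraries, and to 64.7 to 312 in glial cells. With scaling by library size alone, the higher share of all calls moved from 61.5% to 47.3% between E15.5 and P1, from 57.7% to 36.0% between P1 and P8, from 46.9% to 25.7% between P8 and P14, from 53.2% to 30.3% between E15.5 and P30, from 60.7% to 73.9% for HCs against SGNs, and from 66.4% to 77.9% for HCs against glial cells.

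Promoter windows of RefSeq on GRCm38.p6, each with 250 bases before and 50 bases after a gene start, were matched to 25 of the 32 members. *Fdps*, *Fdft1*, *Sqle*, *Scd1*, *Scd2*, *Fads1* and *Fa2h* had no match. Both strands were searched for the core of the sterol regulatory element, TCACNCCAC, and for the CCAAT box, CCAAT, which is read by NF-Y, a common partner of the SREBPs. The sterol core was found in 1 of the 25 members, *Hmgcs1*, against 1.44% of the 27025 genes in the reference. The CCAAT letters were found in 20 of the 25 members (80.0%), against 41.1% of all genes. By role, they were in 5 of 5 genes of the mevalonate branch, 9 of 9 of the sterol branch, 3 of 4 of the SREBP system, 2 of 5 of the fatty acid genes and 1 of 2 of the sphingolipid genes. The matched members without them were *Scap*, *Acaca*, *Elovl6*, *Fads2* and *Ugt8a*. Such a match describes the letters of a window and is neither a binding site nor a cause, and a missing match says only that these letters are not in this window. The windows printed 5′ to 3′ on the strand of the gene, with both motifs in capitals, are the window with the sterol core (*Hmgcs1*, chr13:119690101-119690400 on the plus strand) and 4 windows of members that the results turn on, chosen after their values were seen. These are *Hsd17b7* (chr1:169969156-169969455 on the minus strand), the member that stood out in HCs, and *Msmo1* (chr8:64733529-64733828 on the minus strand), a sterol gene that rose in SGNs, each with 3 CCAAT matches. They are followed by *Cers2* (chr3:95314940-95315239 on the plus strand), high in glial cells and with 1 match, and *Ugt8a* (chr3:125938603-125938902 on the minus strand), with the largest rise in SGNs between E15.5 and P30 and with neither motif. In *Hmgcs1*, the sterol core lies between 137 and 129 bases before the start and overlaps none of the 4 CCAAT matches.
Hmgcs1: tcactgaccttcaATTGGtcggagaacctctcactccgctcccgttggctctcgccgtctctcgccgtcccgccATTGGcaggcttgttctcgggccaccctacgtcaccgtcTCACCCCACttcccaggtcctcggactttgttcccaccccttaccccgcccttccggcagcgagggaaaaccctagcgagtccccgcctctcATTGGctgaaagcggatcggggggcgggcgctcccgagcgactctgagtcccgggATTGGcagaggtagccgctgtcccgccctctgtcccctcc
Hsd17b7: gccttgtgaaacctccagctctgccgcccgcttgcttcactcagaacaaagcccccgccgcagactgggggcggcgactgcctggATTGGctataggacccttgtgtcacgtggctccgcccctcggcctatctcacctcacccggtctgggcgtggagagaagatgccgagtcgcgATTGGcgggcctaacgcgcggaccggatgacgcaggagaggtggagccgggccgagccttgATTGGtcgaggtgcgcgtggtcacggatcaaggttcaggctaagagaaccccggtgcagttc
Msmo1: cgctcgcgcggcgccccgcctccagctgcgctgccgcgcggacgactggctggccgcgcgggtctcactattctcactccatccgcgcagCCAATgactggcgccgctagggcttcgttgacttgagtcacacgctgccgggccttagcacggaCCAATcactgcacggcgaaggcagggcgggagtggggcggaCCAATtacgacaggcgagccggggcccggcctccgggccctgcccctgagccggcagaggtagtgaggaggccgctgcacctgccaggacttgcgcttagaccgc
Cers2: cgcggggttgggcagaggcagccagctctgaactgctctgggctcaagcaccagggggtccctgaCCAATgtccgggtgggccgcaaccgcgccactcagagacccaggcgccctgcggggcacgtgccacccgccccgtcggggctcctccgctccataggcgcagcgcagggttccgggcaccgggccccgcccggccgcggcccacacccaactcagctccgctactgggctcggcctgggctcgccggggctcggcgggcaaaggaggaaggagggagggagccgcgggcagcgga
Ugt8a: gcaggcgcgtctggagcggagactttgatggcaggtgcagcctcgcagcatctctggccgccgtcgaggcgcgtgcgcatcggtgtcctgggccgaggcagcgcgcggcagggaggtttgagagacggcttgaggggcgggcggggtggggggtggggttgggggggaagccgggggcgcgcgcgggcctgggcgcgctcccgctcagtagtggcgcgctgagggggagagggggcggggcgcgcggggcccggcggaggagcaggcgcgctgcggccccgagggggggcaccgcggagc

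With TMM scaling, the summed level of these genes was highest in glial cells, and the higher sum in HCs than in SGNs rested on *Hsd17b7*. The 32 members summed to between 350 and 583 RPKM in SGN libraries, to 748 to 777 in HCs and to 965 to 1229 in glial cells, and these ranges did not overlap. Without *Hsd17b7*, the sums were 529.8 to 533 in HCs, inside the SGN range of 338 to 558, and 953 to 1205 in glial cells. In bulk samples, fewer cells of a type and less RNA per cell cannot be told apart. With scaling by library size alone, the sums were 278 to 567 in SGNs, 1039 to 1077 in HCs and 963 to 1179.7 in glial cells, so HCs and glial cells overlapped and both stayed above SGNs, with *Hsd17b7* included. That scaling multiplies each sum by the library's TMM factor, 1.36 to 1.39 in HCs and 0.742 to 1.19 in SGNs. Multiplied by these factors, the HC sums of 529.8 to 533 without *Hsd17b7* lie above 567, the highest SGN sum with that gene included. That the higher HC sum rested on *Hsd17b7* thus holds with TMM scaling and not with library size alone. *Scd2*, a stearoyl-CoA desaturase, was the most abundant member in SGNs, at 74.4 to 184 RPKM over the 15 libraries. Of the 32 members, 15 had their highest group mean in glial cells, 8 in HCs and 9 at an SGN age. In 5 of the 15, every glial library lay above each of the other 18 libraries, which were *Acaca*, *Scd1*, *Scd2*, *Cers2* and *Fa2h*. The same held in HCs for 3 of the 8 (*Hsd17b7*, *Srebf2* and *Fads2*), and in P30 SGNs for 1 of the 9 (*Sc5d*). The heatmap of the members by library shows these blocks, with the glial block in the lower rows of fatty acid and sphingolipid genes. How many of all genes have such orders of groups was not counted, so these counts describe the members only.

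**Figure D1:**
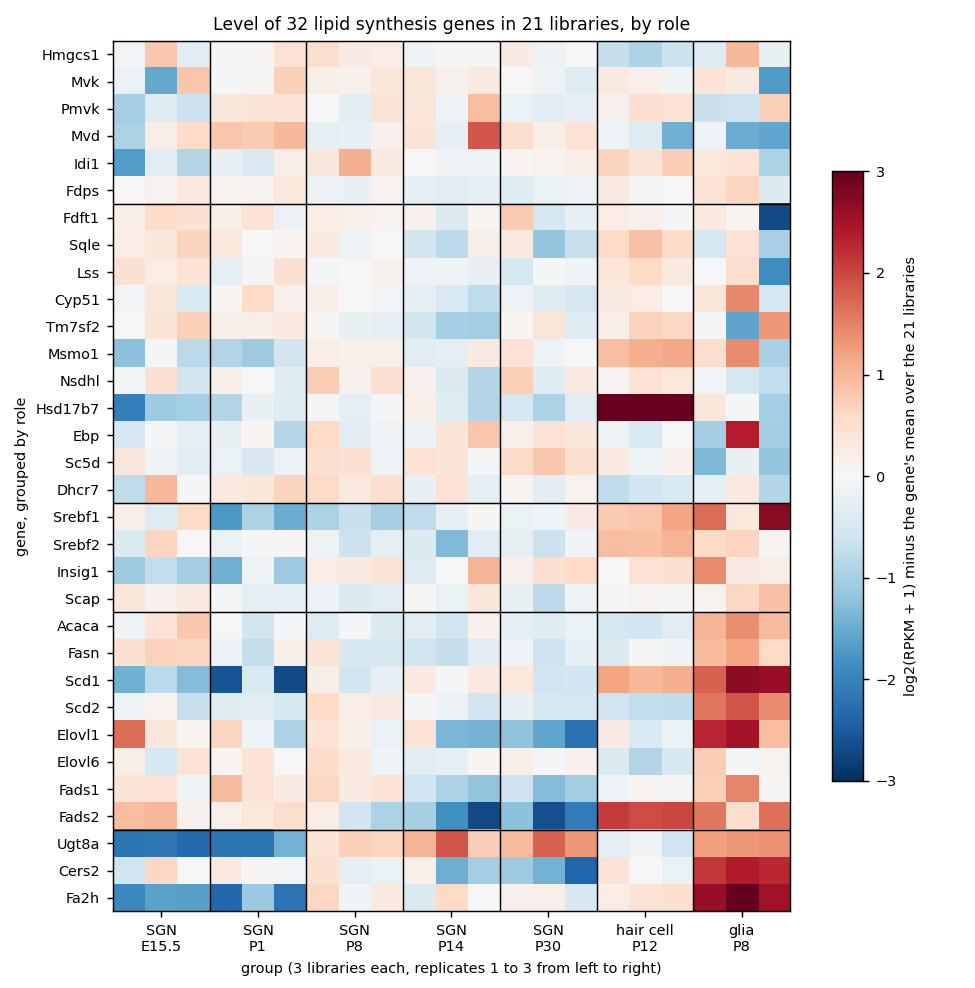
Level of the 32 members in the 21 libraries, as log2(RPKM + 1) minus the gene's mean over all libraries. Rows are genes grouped by role from the mevalonate branch at the top to myelin sphingolipid synthesis at the bottom, columns are libraries in groups of 3, and colours are limited to 3 either way; *Hsd17b7* in HCs exceeds that limit, and the glial libraries are high for the fatty acid and sphingolipid genes and uneven for the sterol genes.

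In SGNs, 12 of the 32 members were called in at least 1 comparison of ages, led by rises of *Ugt8a* and *Fa2h* and falls of *Elovl1* and *Fads2*. The share of all genes called in at least 1 of them was not counted, so that total is not set against genes at large. Between E15.5 and P1, 1 member rose (*Pmvk*) and 1 fell (*Srebf1*), where 5.08% of all genes were called higher and 3.18% lower. Of these 2 calls, that of *Srebf1* alone was left without E15.5 replicate 1 or 3 or without any P1 replicate. Between P1 and P8, 5 of the 32 members rose and 0 fell, against 4.29% and 3.15% of all genes. The risers were *Fa2h*, *Ugt8a*, *Scd1*, *Msmo1* and *Insig1*, and edgeR's quasi-likelihood test and DESeq2 also called 0 falls. That count of 5 was 2 by edgeR's test and without P1 replicate 1, and 3 without P1 replicate 3. Between P8 and P14, 0 members rose and 1 fell (*Fads1*), against 0.251% and 0.285% of all genes, and edgeR's test and DESeq2 gave the same counts, but the fall was not called when any of the 6 libraries was left out. Between P14 and P30, 0 members were called by limma, edgeR or DESeq2, 3 had an unadjusted limma p under 0.05, and of all genes 0.0331% were called higher and 0.0265% lower. The direct comparison of P30 with E15.5 called 5 members higher and 4 lower, against 18.4% and 16.2% of all genes, so the members were called about as often as genes at large. With scaling by library size alone, that split was 2 higher and 10 lower, and the split between E15.5 and P1 was 0 and 2. The members' median log2 fold change over the whole span was -0.20, beside -0.01 for all genes tested.

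Between cell types, 8 members were called, of which *Hsd17b7* and *Fads2* were high in HCs and the others in glial cells. For this total, too, the matching share of all genes was not counted. Against P8 SGNs, P8 glial cells had 4 members higher (*Fa2h*, *Srebf1*, *Scd1* and *Cers2*) and 0 lower, where 7.53% of all genes were called higher and 13.4% lower. No member was called lower by edgeR's test or by DESeq2 either, and 14 members had an unadjusted limma p under 0.05. The members' median difference was 0.24 on the log2 scale, beside -0.22 for all genes. HCs had 2 members higher than the mean of the 5 SGN ages (*Hsd17b7* and *Fads2*) and 0 lower, against 16.2% and 10.5% of all genes, and 6 higher and 0 lower with scaling by library size alone. HCs have no SGN group of their own age, so age and cell type cannot be told apart in that comparison. The cell types also differed in Cre line and in tamoxifen, which HCs and glial cells had and SGNs did not, and HC libraries pooled more cells. In no comparison of cell types can these be told apart from cell type. Against glial cells, HCs had 1 member higher (*Hsd17b7*) and 4 lower (*Fa2h*, *Scd2*, *Elovl1* and *Cers2*), against 16.2% and 8.18% of all genes. With library size alone, that split was 2 higher and 1 lower. The comparisons of HCs and of P8 SGNs with glial cells share the 3 glial libraries, each step between SGN ages shares libraries with its neighbours, and the direct comparison of P30 with E15.5 uses libraries of the first and last steps. Where genes overlap, counts may hold reads of the other gene if strand is not known, or lack reads that both share. A total of 17 members overlap another annotated gene. These are *Hmgcs1*, *Mvd*, *Idi1*, *Fdps*, *Fdft1*, *Lss*, *Cyp51*, *Tm7sf2*, *Srebf1*, *Srebf2*, *Scap*, *Acaca*, *Scd2*, *Elovl1*, *Elovl6*, *Fads1* and *Cers2*.

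**Figure D2:**
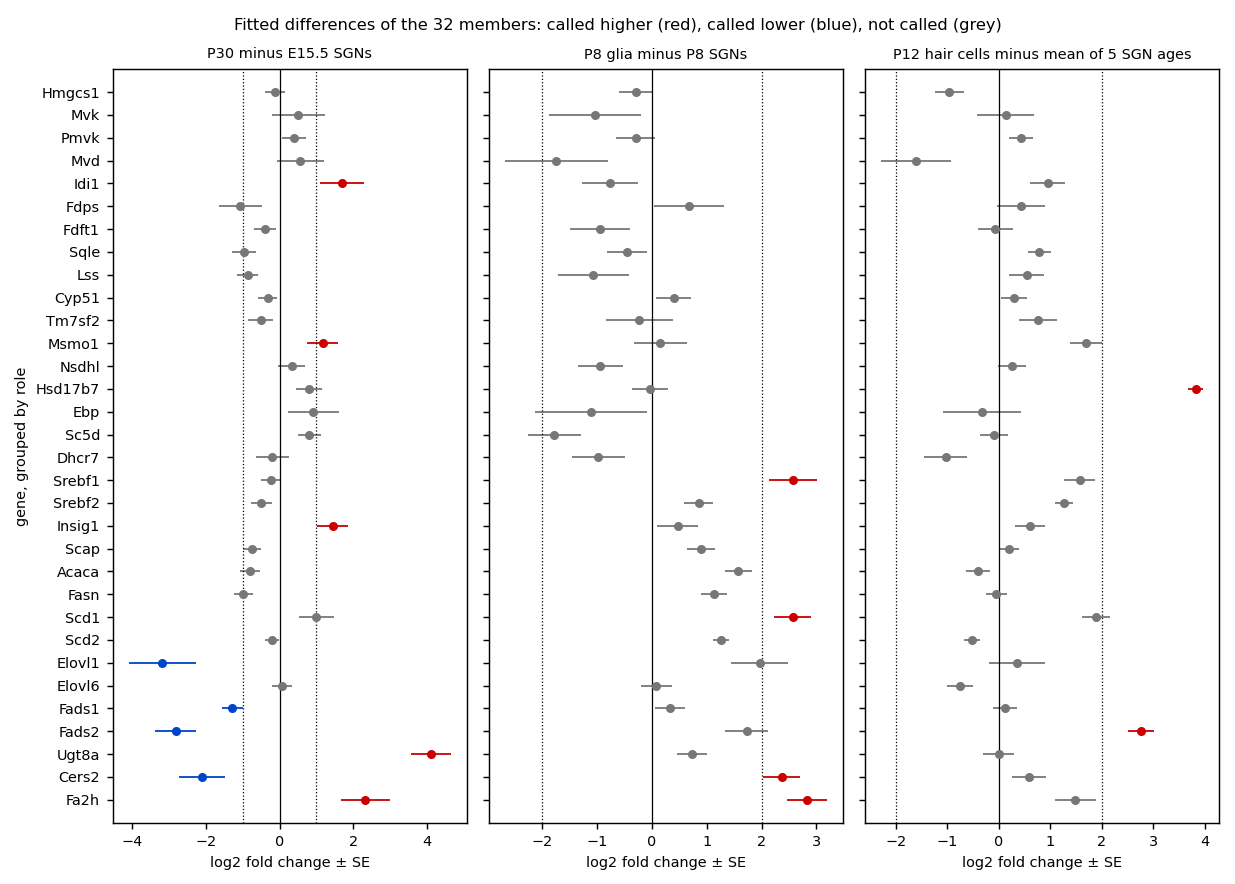
Fitted log2 fold change of each of the 32 members with its standard error (bars) in the comparison of P30 with E15.5 SGNs, of P8 glial cells with P8 SGNs and of P12 HCs with the mean of the 5 SGN ages. Dotted lines mark the fold thresholds, 2-fold on the left and 4-fold in the other panels, and red and blue mark members called higher and lower; in the glial panel, the sterol genes lie left of 0 for the most part and the fatty acid and sphingolipid genes lie right of it.

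Of the 6 mevalonate genes, *Pmvk* and *Idi1* were called, each in 1 comparison. *Pmvk*, the phosphomevalonate kinase, was the most abundant of them on average, with 12.1, 19.3 and 15.9 RPKM in the 3 E15.5 libraries and 32, 33.4 and 33.2 at P1. The groups did not overlap, and the log2 fold change was 1.06 ± 0.30 (SE, limma adjusted p = 0.0327). This call was lost under 4 of 9 alternative settings and when any of 5 of the 6 libraries compared was left out (log2 values of 0.91 to 1.06, limma adjusted p = 0.0682 to 0.0898). *Pmvk* was at 25.2, 19.8 and 33.5 RPKM at P8, 32.3, 22.5 and 48.8 at P14 and 21.9, 20.1 and 21.2 at P30, so the P30 libraries lay between those of E15.5 and of P1. HCs had 27.9, 36.1 and 34.4 RPKM and glial cells 15.49, 16.13 and 41.95, and neither differed from SGNs beyond the thresholds. *Idi1*, which isomerises the isoprene unit, had 0.324, 2.4 and 1.33 RPKM at E15.5 and 3.49, 3.61 and 3.88 at P30, with a log2 fold change of 1.69 ± 0.60 (SE, limma adjusted p = 0.0331). The call was lost under 4 of 9 alternative settings and when any of 5 of the 6 libraries compared was left out (log2 values of 0.99 to 1.82, limma adjusted p = 0.0574 to 0.129), and the lowest E15.5 library held 17 counts. *Hmgcs1*, the HMG-CoA synthase, stayed at 12.4 to 28.5 RPKM in all SGN libraries. It was at 9.31, 7.93 and 9.88 RPKM in HCs, below each SGN library, a log2 difference of -0.96 ± 0.28 (SE, limma adjusted p = 0.00717) that did not reach 4-fold. *Fdps*, the farnesyl diphosphate synthase, overlaps *Gm43738* and *Gm22935* on the same strand. Its counts may hold or lack reads shared with them, so its level is uncertain. It was counted at a low 0.323 to 1.12 RPKM in SGNs and was called in 0 of the 8 comparisons. *Mvk*, the mevalonate kinase, and *Mvd*, the decarboxylase of the branch, were likewise called in none. *Mvk* lay at 0.381 to 6.05 RPKM in SGNs and *Mvd* at 1.01 to 13.

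In the squalene and sterol branch, 1 gene rose in SGNs, 1 stood out in HCs, and 0 of 11 were called between glial cells and SGNs. *Msmo1*, a demethylase of sterol intermediates, had 1.3, 1.04 and 1.9 RPKM at P1 and 3.9, 3.71 and 3.72 at P8, with no overlap and a log2 fold change of 1.48 ± 0.38 (SE, limma adjusted p = 0.0182). The rise was not called by edgeR's test, by the fit of all 21 libraries, or without P1 replicate 1 or 2 (log2 values of 1.31 to 1.44, limma adjusted p = 0.0687 to 0.088). At P30, *Msmo1* was at 4.73, 2.84 and 3.26 RPKM, overlapping the E15.5 libraries (0.794, 3.04 and 1.42). Its log2 fold change between these ages, 1.17 ± 0.43 (SE, limma adjusted p = 0.0386), was called under 2 of 9 alternative settings and was lost without E15.5 replicate 1 or 3 or P30 replicate 1 or 3 (log2 values of 0.78 to 1.24, limma adjusted p = 0.0567 to 0.164). Of the other 10 sterol genes, 0 were called between E15.5 and P30. Among them, *Sqle*, the squalene epoxidase, differed by -0.96 ± 0.32 (SE, limma adjusted p = 0.0262) and *Lss*, the lanosterol synthase, by -0.87 ± 0.28 (SE, limma adjusted p = 0.0196), both under 2-fold. *Fdft1*, the squalene synthase, stayed at 9 to 23.5 RPKM in SGN libraries. *Cyp51*, the lanosterol demethylase, lay at 9.27 to 25.3 RPKM, *Nsdhl*, a sterol dehydrogenase, at 5.06 to 17.6, *Dhcr7*, the last reductase of the pathway, at 1.6 to 7.79, and *Tm7sf2*, a sterol reductase, at 1.27 to 6.7. Each of these 4 was called in 0 of the 8 comparisons.

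*Hsd17b7* (chromosome 1, 169949535 to 169969241) encodes an enzyme of late sterol synthesis that also acts on steroid hormones. It had 244, 233 and 215 RPKM in the 3 HC libraries, and in all other libraries it lay between 5.2 and 31.6. The lowest HC library was therefore well above the highest of the other 18 libraries, which was glial replicate 1. The log2 difference from the SGN mean was 3.82 ± 0.15 (SE, limma adjusted p = 1.3e-14), or 14.2-fold, and the difference from glial cells was 3.38 ± 0.28 (SE, limma adjusted p = 1.2e-08). Both calls held under each alternative setting and without each library. Of the other 10 genes of the branch, 0 were called in HCs, so the sum of the branch in HCs (306 to 335 RPKM) was mostly *Hsd17b7*. *Msmo1* had the next largest difference, with 6.98, 8.08 and 8.33 RPKM in HCs against 0.794 to 4.73 in SGNs, a log2 difference of 1.69 ± 0.31 (SE, limma adjusted p = 9.6e-05) that fell short of 4-fold.

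Within SGNs, *Hsd17b7* had 5.2, 11.2 and 11.6 RPKM at E15.5, 13, 21.1 and 18.9 at P1, 24.26, 19.95 and 23.65 at P8, 28.4, 19 and 12.9 at P14 and 17.1, 12.4 and 19.6 at P30, with no call between ages. These levels were between 2.25% and 12.3% of the HC mean. HC markers were present in the same libraries. As a percent of the HC mean, group means of SGNs ran from 0.333% at E15.5 to 2.76% at P1 for *Gfi1*, from 0.457% at E15.5 to 6.01% at P14 for *Otof*, from 3.41% at E15.5 to 14.9% at P1 for *Slc26a5*, and from 6.69% at E15.5 to 28.7% at P8 for *Ocm*, the highest of the 8 markers. *Hsd17b7* itself had group means of 4.05% at E15.5 to 9.8% at P8. In E15.5 replicate 1, where *Hsd17b7* was at 5.2 RPKM, *Pou4f3* and *Ocm* were at 0, whereas *Myo7a*, at 12.6 RPKM, was higher than in any other SGN library. The part of HC material in the SGN level of *Hsd17b7* was not tested.

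Several sterol genes were uneven among the 3 glial libraries. *Ebp*, a sterol isomerase, was at 0.179, 11.2 and 0.167 RPKM there, on 4 to 298 counts. *Lss* was at 3.16, 4.98 and 0.143 RPKM, *Fdft1* at 16.3, 14 and 1.19, and *Cyp51* at 21.1, 46.2 and 10.9. Glial replicate 3 was the lowest of the 3 for *Ebp*, *Lss*, *Fdft1* and *Cyp51*. *Sc5d*, a sterol desaturase, was the single gene of the branch below the adjusted p of 0.01 against P8 SGNs, at 0.934, 3.22 and 1.19 RPKM in glial cells and 5.87, 5.78 and 3.47 in SGNs. Its log2 difference was -1.77 ± 0.48 (SE, limma adjusted p = 0.00502), which did not reach 4-fold. The median of the 11 sterol genes was -0.94 on the log2 scale, lower than that of all genes tested (-0.22). By library, the median level of the branch was 5.11, 10.3 and 1.39 RPKM in glial cells and 5.87, 5.78 and 5.27 in P8 SGNs. Glial replicate 2 thus lay above the P8 SGN libraries, replicate 1 near them and replicate 3 well below.

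Of the 4 genes of SREBP control, *Srebf1* and *Insig1* were called between SGN ages and *Srebf2* and *Scap* were not. *Srebf1*, whose product favours fatty acid genes, had 16.3, 10.6 and 21.9 RPKM at E15.5 and 3.54, 6.75 and 4.37 at P1, with every P1 library below every E15.5 library. The log2 fold change was -1.75 ± 0.32 (SE, limma adjusted p = 0.00299), a call kept without each of the 6 libraries and lost in the fit of all 21 libraries. From there its libraries lay at 6.75, 8.47 and 6.49 RPKM at P8, 7.86, 11.4 and 14.3 at P14 and 12.1, 12.7 and 16.8 at P30. None of these later steps passed the test, and P30 did not differ from E15.5 beyond its spread (log2 fold change -0.23, SE 0.28, limma adjusted p = 0.535). In glial cells *Srebf1* was at 47.1, 17.8 and 96.6 RPKM, uneven but above every P8 SGN library, with a log2 difference of 2.58 ± 0.44 (SE, limma adjusted p = 9.4e-05). This call held in each setting tried. In HCs it was at 24.9, 25.6 and 33.3 RPKM, 1.57 above the SGN mean on the log2 scale (limma adjusted p = 0.00016) and under 4-fold. The gene overlaps *Rai1* on the opposite strand, and without known strand settings their reads cannot be told apart.

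*Srebf2*, whose product favours cholesterol genes, was at 50.4, 49.7 and 53.5 RPKM in HCs, above all 18 other libraries. Its log2 difference from the SGN mean was 1.26 ± 0.17 (SE, limma adjusted p = 2.6e-06), or 2.4-fold. In SGNs it was at 19.5, 41.1 and 26.4 RPKM at E15.5, 22.6, 25 and 26.9 at P1, 23.4, 16.4 and 21 at P8, 19.4, 9.79 and 20.4 at P14 and 21.4, 16.2 and 24.2 at P30, and was called in none of the 5 comparisons. *Insig1*, which retains SCAP in the endoplasmic reticulum and is itself a target of the SREBPs, had 3.55, 10.1 and 4.79 RPKM at P1 and 13.4, 13.8 and 15 at P8. All P8 libraries lay above all P1 libraries, and the log2 fold change was 1.39 ± 0.37 (SE, limma adjusted p = 0.0214). That step was not called by edgeR's test or without P1 replicate 1 or 3 or P8 replicate 2 or 3 (log2 values of 0.99 to 1.38, limma adjusted p = 0.0567 to 0.161). The change from E15.5 (4.88, 6.31 and 4.93 RPKM) to P30 (12.4, 16.3 and 17.5) was 1.44 ± 0.42 (SE, limma adjusted p = 0.0124) and kept its call without each library, but not with scaling by library size alone. *Scap* lay at 3.32 to 8.5 RPKM in SGNs and was called in 0 of the 8 comparisons, although its glial libraries (7.03, 10.5 and 12.8) lay above the P8 SGN libraries (5.61, 4.55 and 4.92).

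Of the 8 fatty acid genes, *Scd1*, *Scd2*, *Elovl1*, *Fads1* and *Fads2* were called in at least 1 comparison and *Acaca*, *Fasn* and *Elovl6* in none. *Acaca*, the acetyl-CoA carboxylase, had 12.7, 16.6 and 12.1 RPKM in glial cells and 4.19, 5.56 and 3.99 in P8 SGNs, which did not overlap. The log2 difference, 1.58 ± 0.25 (SE, limma adjusted p = 3.6e-05), did not reach 4-fold. *Fasn*, the fatty acid synthase, was at 40.1, 47.1 and 30.9 RPKM in glial cells and 26.7, 14.3 and 14.2 in P8 SGNs, a difference of 1.13 ± 0.24 (SE, limma adjusted p = 0.00068). Both genes, which make the chain itself, were thus higher in glial cells by 2 to 3 times with an adjusted p under 0.01. In SGNs, *Fasn* was at 28.3, 33 and 32.2 RPKM at E15.5 and 18.6, 12.9 and 16.8 at P30, with no overlap. The log2 fold change of -0.99 ± 0.25 (SE, limma adjusted p = 0.00545) lay just under the 2-fold limit.

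*Scd1* and *Scd2* (chromosome 19, 44293674 to 44306864) encode desaturases that place a double bond in stearic and palmitic acid, and they are close paralogs whose shared reads may have been split or dropped in counting, so the share between them is uncertain. *Scd2* had 367, 450.4 and 324 RPKM in glial cells and 184, 142 and 144 in P8 SGNs, and all glial libraries lay above all others. The log2 difference was 1.27 ± 0.14 (SE, limma adjusted p = 1e-06), or 2.41-fold, with the smallest standard error of any member in this comparison. HCs were at 81.2, 71.4 and 70.8 RPKM, and against glial cells their log2 difference was -2.35 ± 0.18 (SE, limma adjusted p = 4e-09), or -1.86 with scaling by library size alone, where it fell short of 4-fold. *Scd1* was at 61.5, 115 and 109.5 RPKM in glial cells and 40.6, 35.1 and 36.9 in HCs. Every glial library lay above every HC library, and every HC library above every SGN library. Its difference between glial cells and P8 SGNs was 2.57 ± 0.33 (SE, limma adjusted p = 5e-06), a call that DESeq2 did not make. In SGNs, *Scd1* had 2.02, 12.3 and 1.82 RPKM at P1 and 19.6, 11 and 14.4 at P8. The log2 fold change was 2.11 ± 0.50 (SE, limma adjusted p = 0.0114), but P1 replicate 2 lay inside the P8 range, and the call was lost by edgeR's test and without P1 replicate 1 or 3 (log2 values of 1.60 to 1.71, limma adjusted p = 0.0626 to 0.113). *Scd2* was at 93.2, 94.5 and 86.6 RPKM at P1, and its log2 fold change to P8 was 0.77 ± 0.18 (SE, limma adjusted p = 0.0102), under 2-fold although no P1 library reached the P8 range. It had 109.6, 129.9 and 74.4 RPKM at E15.5, 118, 107 and 81.2 at P14 and 103, 84 and 84.1 at P30, levels that overlapped across these ages. Within a library, *Scd2* exceeded *Scd1* by 9.39 to 12.8 times at P8, 4.74 to 7.56 times at P30 and 1.92 to 2.03 times in HCs.

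*Fads1*, *Fads2* and *Elovl1*, which act on polyunsaturated or very long chains, fell in SGNs between E15.5 and P30. *Fads2* (chromosome 19, 10062765 to 10101746), the delta-6 desaturase, had 42.4, 44.3 and 23.9 RPKM at E15.5, 25.6, 14.2 and 10.7 at P8 and 8.69, 2.65 and 4.31 at P30. The E15.5 and P30 libraries did not overlap, and the log2 fold change between them was -2.82 ± 0.55 (SE, limma adjusted p = 0.00072). No single step between neighbouring ages was called for *Fads2*. *Fads1*, the delta-5 desaturase, was at 29, 30.1 and 20.3 RPKM at E15.5 and 34.1, 26.3 and 29.6 at P8 and was then at 14.2, 10.8 and 9.1 at P14. All P14 libraries lay below all P8 libraries, with a log2 fold change of -1.38 ± 0.27 (SE, limma adjusted p = 0.0262). That call was lost with no filter, in the fit of all 21 libraries, and when any of the 6 libraries compared was left out (log2 values of -1.59 to -1.25, limma adjusted p = 0.0503 to 0.128). The change from E15.5 to P30 (13.9, 8.37 and 10.1 RPKM), -1.28 ± 0.28 (SE, limma adjusted p = 0.00197), held in each setting and without each library.

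*Elovl1*, an elongase of very long chain saturated fatty acids, had 19.2, 7.07 and 5.65 RPKM at E15.5 and 1.75, 1.17 and 0.355 at P30. The groups did not overlap, and the log2 fold change was -3.18 ± 0.91 (SE, limma adjusted p = 0.0107), the largest fall among the members. Its lowest P30 library held 18 counts. E15.5 replicate 1, the highest of the 3, was also the library with the highest sum of the 6 blood and immune markers (115 RPKM, against at most 1.08 in replicates 2 and 3), and the call held without it. *Elovl1* overlaps *Cdc20* on the opposite strand, so its counts are uncertain. In glial cells it was at 30.1, 35.2 and 11 RPKM, above all P8 SGN libraries (7.55, 6.24 and 4.6), with a log2 difference of 1.97 ± 0.52 (SE, limma adjusted p = 0.0043) just short of 4-fold. *Elovl6*, which lengthens palmitic acid, stayed at 7.29 to 16.4 RPKM in SGNs and was called in 0 of the 8 comparisons.

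In HCs, *Fads2* was the fatty acid gene that stood out. HCs had 95.7, 87.3 and 90.4 RPKM of it, above each glial library (66.8, 30.5 and 70.2) and each SGN library. The log2 difference from the SGN mean was 2.76 ± 0.25 (SE, limma adjusted p = 8.3e-09), and against P14 SGNs alone, the nearest age, the call also held. *Fads1* was at 19.6, 22.9 and 22.4 RPKM in HCs, with a difference of 0.12 ± 0.24 (SE, limma adjusted p = 0.7) from the SGN mean. *Elovl1* had 6.63, 3.68 and 4.6 RPKM in HCs and differed from glial cells by -2.34 on the log2 scale (limma adjusted p = 0.00279). This last call was lost with library size alone, by edgeR's test, and without HC replicate 2 or 3 or glial replicate 1 or 2 (log2 values of -2.33 to -2.08, limma adjusted p = 0.0104 to 0.0165).

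The 3 genes of myelin sphingolipid synthesis all changed in SGNs between E15.5 and P30, *Ugt8a* and *Fa2h* upward and *Cers2* downward. *Ugt8a* (chromosome 3, 125865271 to 125938619) encodes the galactosyltransferase that makes galactosylceramide, the typical glycolipid of myelin. It had 1.81, 1.87 and 1.54 RPKM at E15.5, 1.84, 1.84 and 3.71 at P1 and 15.7, 19.9 and 18.7 at P8. Libraries of the 2 earlier ages all stayed below 4 RPKM, and all P8 libraries lay above 15. The log2 fold change between P1 and P8 was 3.00 ± 0.43 (SE, limma adjusted p = 0.0003). At P14 it was at 24.9, 46 and 20.1 RPKM and at P30 at 23.6, 42.6 and 30.6, a change from E15.5 of 4.11 ± 0.54 (SE, limma adjusted p = 2e-05), or 17.3-fold. These calls held in each setting and without each library. Glial cells had 28.6, 30.0 and 32 RPKM, inside the range of the P14 and P30 SGNs, and the difference from P8 SGNs was 0.74 ± 0.28 (SE, limma adjusted p = 0.0358). HCs had 9.42, 10.8 and 7.37 RPKM, each below every glial library, with a log2 difference of -1.73 ± 0.33 (SE, limma adjusted p = 0.00026) that did not reach 4-fold.

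*Fa2h* (chromosome 8, 111345135 to 111393824) adds the 2-hydroxyl group to the fatty acids of galactolipids. It had 0.8, 1.26 and 1.22 RPKM at E15.5, 0.342, 2.2 and 0.479 at P1 and 9.64, 5.31 and 7.47 at P8, so the 6 earlier libraries all lay below the P8 libraries. The log2 fold change between P1 and P8 was 3.42 ± 0.64 (SE, limma adjusted p = 0.00233), the largest of any member at this step, and it held in each setting and without each library. At P30 the level was 6.59, 6.57 and 3.96 RPKM, a change from E15.5 of 2.33 ± 0.66 (SE, limma adjusted p = 0.00981), which was lost with sample quality weights. In contrast to *Ugt8a*, *Fa2h* was higher by over 4-fold in glial cells, at 41.1, 95 and 38.1 RPKM, a log2 difference of 2.83 ± 0.37 (SE, limma adjusted p = 5.3e-06) from P8 SGNs. HCs had 6.99, 8.16 and 8.64 RPKM, and glial libraries lay above all HC libraries (log2 difference -2.69, SE 0.39, limma adjusted p = 1.4e-05). The ratio of *Ugt8a* to *Fa2h* within a library was 0.316 to 0.842 in glial cells and 1.63 to 3.75 in P8 SGNs, without overlap. SGNs had 1.26 to 2.27 at E15.5, 3.45 to 6.13 at P14 and 3.58 to 7.73 at P30. At P1 the range was wide, 0.838 to 7.74, and overlapped that of glial cells. HCs had 0.854 to 1.35.

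**Figure D3:**
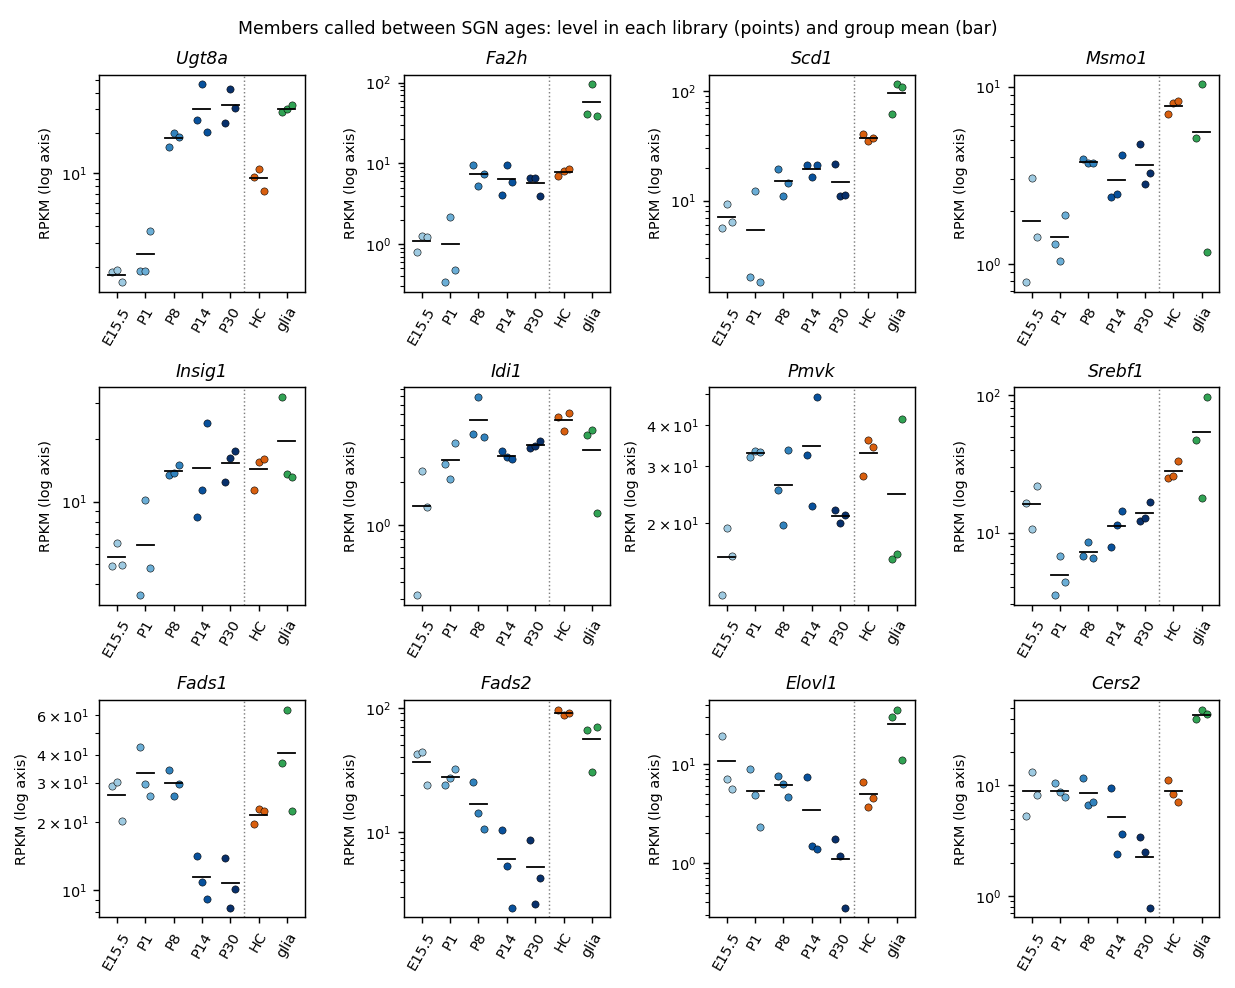
RPKM (log axis) of the 12 members called in any comparison of SGN ages, in each of the 3 libraries per group (points) with the group mean (bar). SGN ages are in blue, HCs at P12 in orange and glial cells at P8 in green, right of the dotted line; *Ugt8a* and *Fa2h* step up at P8, while *Fads2*, *Elovl1* and *Cers2* are lowest at P30.

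*Cers2* (chromosome 3, 95314791 to 95323599), the ceramide synthase for very long acyl chains, went the other way. Its levels were 5.25, 13.3 and 8.22 RPKM at E15.5, 10.4, 8.64 and 7.8 at P1, 11.8, 6.69 and 7.15 at P8 and 3.43, 2.49 and 0.789 at P30. All P30 libraries lay below all E15.5 libraries, with a log2 fold change of -2.11 ± 0.62 (SE, limma adjusted p = 0.0121), a call that was lost without P30 replicate 3 (log2 fold change -1.55, limma adjusted p = 0.0533). In glial cells it was at 39.5, 47.9 and 43.9 RPKM, the tightest of the genes called there, and the log2 difference from P8 SGNs was 2.36 ± 0.33 (SE, limma adjusted p = 1.1e-05). HCs had 11.2, 8.42 and 7.09 RPKM, -2.33 ± 0.35 (SE, limma adjusted p = 2e-05) relative to glial cells, or -1.84 with scaling by library size alone, where it fell short of 4-fold. *Cers2* overlaps *Setdb1* on the opposite strand.

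Myelin and glial markers moved with some of these levels in SGN libraries, and their values are given beside the members as shares of the glial mean. *Prx*, a protein of myelinating Schwann cells, was at 0.738, 2.46 and 1.52 RPKM in P1 SGNs, 18.2, 17.8 and 20.7 at P8 and 2.94, 1.45 and 0.346 at P30, against 135, 125 and 98.9 in glial cells. It was thus at 1.31% of the glial mean at P1, 15.8% at P8 and 1.32% at P30, highest at the age when *Ugt8a*, *Fa2h* and *Scd1* rose. Of the 7 Schwann cell myelin markers, 6 were tested between P1 and P8 and 4 of them rose. At P8, the 3 SGN libraries had from 52.1% to 65.9% of the glial level of *Ugt8a*, and their mean was 12.9% of *Fa2h*, 15.8% of *Scd1* and 41.2% of *Scd2*, beside 21.4% of the glial level of *Pmp22* and 2.84% of *Erbb3*, which are further glial markers. The markers differed widely at that age, from 1.69% for *Ncmap* to 76.2% for *Drp2* and 638% for *S100b*. The part of glial RNA in the P8 levels was not tested. Of the 12 markers in the glial identity and Schwann cell myelin lists, 11 had a lower mean at P30 than at P8, among them *Pmp22* (3.07% of the glial level) and *Erbb3* (0.296%). *Drp2* was still at 25.4% at P30, and *S100b* went the other way, from 46.5% at E15.5 to 1203% at P30. *Ugt8a* stood at 107% and *Fa2h* at 9.83% of the glial level at that age.

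Among the 15 SGN libraries, P30 replicate 3 had the lowest sum of Schwann cell myelin markers (10.5 RPKM). In it, *Pmp22* was at 2.33 RPKM, *Prx* at 0.346 and *Erbb3* at 0.0714, and *Mag* was at 0. Other glial markers were not low, as every P30 library had at least 13.9% of the glial mean of *Drp2* and 1107% of that of *S100b*. In P30 replicate 3, *Ugt8a* was at 30.6 RPKM and *Fa2h* at 3.96, above all 6 libraries of E15.5 and P1. *Cers2* (0.789 RPKM) and *Elovl1* (0.355 RPKM), on the other hand, were at their lowest there, as were *Pmp22*, *Prx* and *Erbb3*. At P1, where *Prx* was at 1.31% and *Erbb3* at 1.08% of the glial level, *Cers2* stood at 20.5% and *Elovl1* at 21.2%. Among the glial markers at P1, *Drp2* was at 57.6% and *S100b* at 201%, and the others lay between 0.284% and 2.10%. The 6 markers of supporting cells or fibroblasts summed to 9.29 to 34.3 RPKM at E15.5 and 1.69 to 20.01 at P30, and their median log2 fold change was -2.78, although none of the 6 passed the thresholds. In the postnatal SGN ages, replicate 1 had the highest sum of these markers, for example 121 against 16.5 and 11.3 RPKM in replicates 2 and 3 at P8. The part of glial, supporting cell or fibroblast RNA in the fall of *Cers2* and *Elovl1* was not tested.

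**Figure D4:**
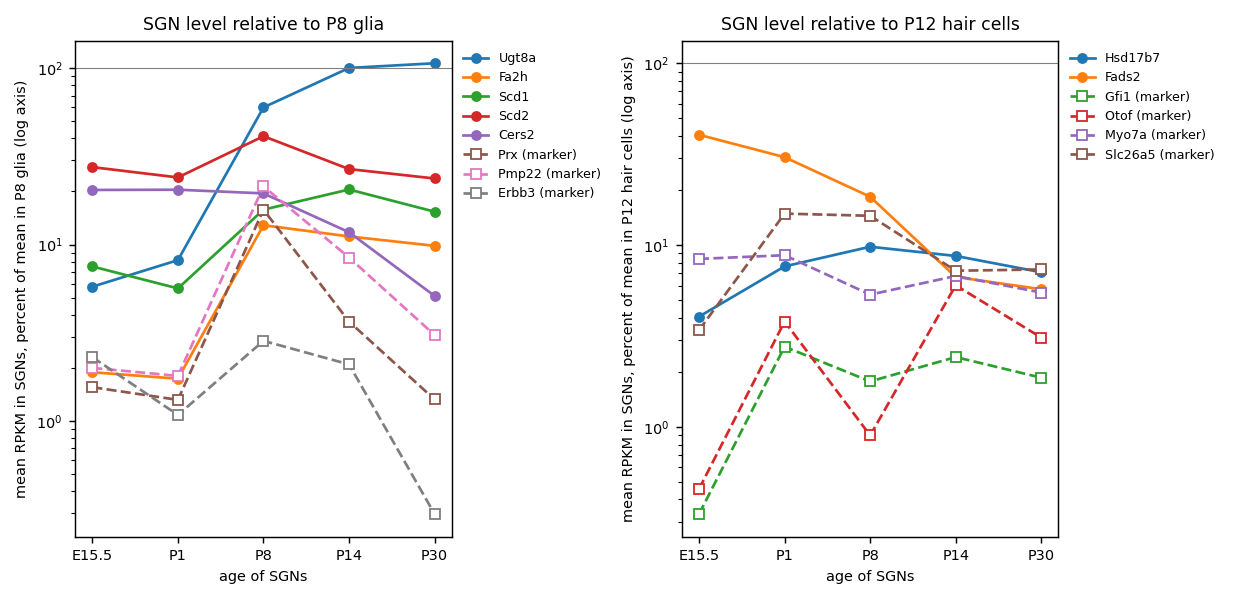
Mean level in SGNs at each age as a percent of the mean in P8 glial cells (left) and in P12 HCs (right), on a log axis, for members (filled circles, solid lines) and cell type markers (open squares, dashed lines). On the left, the 3 markers drawn, which are among the 7 of 12 glial markers that were highest at P8, lie at 3.07% or less at P30, while *Ugt8a* reaches 107% and *Fa2h* stays at 9.83%. The markers *Drp2* and *S100b*, at 25.4% and 1203% at P30, are not drawn. On the right, *Fads2* declines from 40.4% to 5.72% and *Hsd17b7* stays between 4.05% and 9.8%.

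A further 70 genes of the same pathways, listed by function in sterol, fatty acid and sphingolipid metabolism, were counted beside the members, and 69 of them were tested. Between P1 and P8, 7 rose and 1 fell, where 4.29% of all genes were called higher and 3.15% lower. The largest rises were those of the sterol exporter *Abca1*, with a log2 fold change of 2.28 ± 0.55 (SE, limma adjusted p = 0.0133), of *Fads6* (1.62) and of the dihydroceramide desaturase *Degs1* (1.28). The gene that fell was the elongase *Elovl2*, with a log2 fold change of -2.90 ± 0.52 (SE, limma adjusted p = 0.00163). Between P8 and P14 and between P14 and P30, 0 of the 69 were called. Of all genes, 0.251% were called higher and 0.285% lower at the first of these steps, and 0.0331% and 0.0265% at the second. Over the whole span from E15.5 to P30, 25 rose and 6 fell, against 18.4% and 16.2% of all genes. The median log2 fold change was 0.54, beside -0.20 for the 32 members and -0.01 for all genes tested. Scaling by library size alone shifted the median of all genes by -0.47 here, and the split of the 69 genes was not counted at that scaling. The 3 largest rises were *Fads6* (4.55), *Elovl7* (3.52) and *Elovl5* (3.21). The 3 largest falls were *Elovl2* (-4.02), the fatty acid binding protein *Fabp5* and the sphingomyelin synthase *Sgms1* (-2.49). *Cers1*, the ceramide synthase of neurons for C18 chains, rose by 2.80 ± 0.69 (SE, limma adjusted p = 0.00427), and its ratio to *Cers2* within a library was 0.0481 to 0.251 at E15.5 and 2.67 to 8.11 at P30, with no overlap.

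Between E15.5 and P1, 6 of the 69 rose and 1 fell, against 5.08% and 3.18% of all genes. They were led by the carboxylase *Acacb* (log2 fold change 2.38, SE 0.72, limma adjusted p = 0.0421) and, downward, *Sgms1* (-1.72, SE 0.29, limma adjusted p = 0.00167). Against P8 SGNs, glial cells had 4 of the 69 higher and 8 lower, where 7.53% of all genes were called higher and 13.4% lower. Among the higher were *Fabp7*, with a log2 difference of 4.56 ± 0.71 (SE, limma adjusted p = 3.3e-05), *Abca1* (3.84) and *Lbr*, a sterol reductase of the nuclear envelope (2.04). The lowest was *Cyp46a1*, the neuronal enzyme that hydroxylates cholesterol for export (-5.78, SE 1.17, limma adjusted p = 0.0005). HCs had 5 of the 69 above the SGN mean and 9 below it, against 16.2% and 10.5% of all genes. The largest were *Scd3* (3.32, SE 0.49, limma adjusted p = 7.2e-06) on the higher side and *St8sia1*, a ganglioside sialyltransferase (-7.99, SE 0.99, limma adjusted p = 7.4e-07), on the lower. HCs had 6 above glial cells and 8 below, against 16.2% and 8.18% of all genes. *Cyp46a1* was at the top (5.85, SE 1.19, limma adjusted p = 0.00048) and *Fabp7* at the bottom (-6.62, SE 1.19, limma adjusted p = 0.00015).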

How the data were processed

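The authors picked or sorted tdTomato+ cells, amplified their RNA, mapped reads to mm10 with STAR 2.4.0i, counted them on GENCODE vM15 genes with featureCounts and deposited 1 table of raw counts with gene lengths for the 21 libraries. The labels say that HCs were picked by hand, whereas the methods describe sorting. How strand, mates and reads with several mapping places were treated is not given in the sources used here. Small counts were mostly even (67.9% in the median library).

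Groups were taken from the sample titles. A gene was kept where each replicate of some group exceeded a CPM of 1. Kept genes were scaled by TMM in edgeR 4.0.16 and fitted by voom (limma 3.58.1, R 4.3.3) with 1 mean for each group, and tests were two-sided. Scripts were tested on simulated data, with calls at over 2-fold and an adjusted p under 0.05. Of simulated 4-fold changes, limma-voom recovered 55% between P1 and P8 and 30.3% between glial cells and P8 SGNs. Of 8-fold changes, it recovered 74.7% and 50.5%, so real differences can go uncalled. RPKM was used in place of TPM because the 57-base gene Gm23935 took between 8.17% and 68.1% of TPM per library. A count of 0 allows up to 3 counts, or 0.0805 to 0.289 CPM, for counting error only. GENCODE M21 (GRCm38) supplied symbols and positions for all 32 members. Tables and plots used pandas 2.3.3, numpy 2.4.6 and matplotlib 3.10.9 under Python 3.11.15. Alternatives were other normalizations, filters and thresholds, edgeR's quasi-likelihood test, DESeq2 1.42.0, sample quality weights, a replicate block, the fit of all libraries and leaving out each library.

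The members, the other gene lists and the tests were chosen with earlier results of these data known. Per-library values are given for up to 6 called members in each direction and for the most abundant of each role. They are also given for *Hmgcs1*, *Ebp*, *Lss*, *Fdft1*, *Cyp51*, *Sc5d*, *Scap*, *Acaca* and *Fasn*, which that rule does not cover. Other pathway genes are named where called, up to 3 in each direction, and *Cers1* was chosen after its values were seen. Some markers chosen for the check of cell types are not reported here and are left out of the marker sums.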

Additional observations from a re-analysis of the deposited data

How the results depend on the processing

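Of the 28 calls of a member in a comparison, each kept its direction in every alternative run. The number of called members changed as follows. Between E15.5 and P1, it was 2, and 1 with no filter or with sample quality weights, 0 in the fit of all 21 libraries and 1 to 2 when each library was left out (1 without E15.5 replicate 1 or 3 or P1 replicate 1 or 2). Between P1 and P8 it was 5, and 2 with edgeR's test and 2 to 5 with a library left out (2 without P1 replicate 1, 3 without P1 replicate 3). Between P8 and P14 it was 1, and 0 with no filter, in the fit of all 21 libraries, and without any of the 6 libraries compared, a range of 0 to 1. Between P14 and P30 it was 0 throughout. Between E15.5 and P30 it was 9, and 7 to 11 with a library left out. For glial cells against P8 SGNs it was 4, 10 at over 2-fold and an adjusted p under 0.05, and 4 to 6 with a library left out (6 without glial replicate 2). For HCs against the SGN mean it was 2, 6 with library size alone, 8 at the wider thresholds, and 2 to 3 with a library left out (3 without P1 replicate 2 or P30 replicate 1). For HCs against glial cells it was 5, 3 with library size alone, 12 at the wider thresholds, and 4 to 5 with a library left out. Library size alone shifted the median of all genes by -0.47 on the log2 scale between E15.5 and P30, by 0.55 for HCs against SGNs and by 0.49 for HCs against glial cells. The RLE normalization of edgeR, used in place of TMM, shifted the last 2 by 0.22 and 0.15. The wider thresholds call more members by construction, and the cause of the other changes was not tested.

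Replicates share numbers across groups, but the groups on either side of a comparison did not deviate together, across genes, by an r over 0.1 in each of the 3 numbers (for P14 and P30 the r values were 0.38, 0.23 and 0.09). Within the SGN mean set against HCs, P8 and P30 did (0.39, 0.17 and 0.15). With a replicate block, the counts of called members were 2, 5, 1, 0, 9, 4, 2 and 5 in the order above, and the 28 calls were the same. With 3 libraries per group, low members such as *Ebp*, *Mvd* and *Fdps* rest on few counts in some libraries, and a difference that was not called is not shown to be absent.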
